A study of Homo sapiens with 3 samples.

Results

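The genes described are the 7 AP-1 genes FOS, FOSB, FOSL1, FOSL2, JUN, JUNB and JUND, together with the related genes ATF3 and BATF3. They were chosen by symbol from a table of gene read counts, 9 of 47971 distinct symbols, and each symbol had 1 entry. The counts come from 3 libraries of HCT116, an established epithelial cell line from a human colon cancer. The untreated library came from HCT116 cells that received nothing, the CDK4 siRNA library from HCT116 cells 24 hours after transfection with a small interfering RNA against CDK4, and the palbociclib library from HCT116 cells kept for 24 hours in 1 µM palbociclib, an inhibitor of the kinases CDK4 and CDK6. Each group is 1 library, and mock-transfected, non-targeting siRNA or solvent-treated cells were not analysed here, so no difference has a replicate check and brackets hold 95% intervals for counting error only.

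AP-1 is a transcription factor made of a pair of proteins joined through a leucine zipper, a coiled stretch next to the basic region that grips DNA. JUN proteins can pair with each other or with FOS proteins, while FOS proteins need a JUN partner, and the pairs bind the sequence TGAGTCA. ATF3 and BATF3 share this basic leucine zipper (bZIP) fold. ATF3 is a stress-induced factor that binds related sites and can pair with JUN proteins, and BATF3, best known from dendritic cells, pairs with JUN proteins but lacks an activation domain. Several members, FOS, FOSB, JUN and ATF3 among them, are immediate early genes: growth factors and stress kinases switch them on within minutes, and their mRNAs are short-lived. In colon epithelial cells AP-1 acts downstream of the MAP kinase pathway.

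The promoters of the most abundant JUN gene and of the members furthest apart between libraries are shown to let their elements be compared. They run from 250 bases before to 50 bases after the annotated start, are read 5′ to 3′ along the gene, and are RefSeq sequences of the build GRCh38.p14. Capitals mark TGACG, TGACATCA, TGACGTCA or TGAGTCA on either strand, which are the core of the cyclic AMP response element (CRE), a JUN-type variant, the full CRE and the AP-1 site.
FOS promoter (chr14:75278578-75278877, plus strand): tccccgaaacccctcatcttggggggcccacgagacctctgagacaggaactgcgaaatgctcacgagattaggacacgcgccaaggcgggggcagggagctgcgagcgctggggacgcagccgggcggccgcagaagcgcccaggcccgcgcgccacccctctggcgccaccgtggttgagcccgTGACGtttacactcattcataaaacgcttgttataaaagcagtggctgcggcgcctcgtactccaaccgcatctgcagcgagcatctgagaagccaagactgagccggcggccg
FOSB promoter (chr19:45467746-45468045, plus strand): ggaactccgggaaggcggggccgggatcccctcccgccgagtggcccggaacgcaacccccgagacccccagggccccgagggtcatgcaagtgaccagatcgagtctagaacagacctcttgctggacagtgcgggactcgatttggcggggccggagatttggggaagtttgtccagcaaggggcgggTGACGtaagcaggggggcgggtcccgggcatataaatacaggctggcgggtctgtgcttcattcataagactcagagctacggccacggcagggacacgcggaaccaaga
JUN promoter (chr1:58783998-58784297, minus strand): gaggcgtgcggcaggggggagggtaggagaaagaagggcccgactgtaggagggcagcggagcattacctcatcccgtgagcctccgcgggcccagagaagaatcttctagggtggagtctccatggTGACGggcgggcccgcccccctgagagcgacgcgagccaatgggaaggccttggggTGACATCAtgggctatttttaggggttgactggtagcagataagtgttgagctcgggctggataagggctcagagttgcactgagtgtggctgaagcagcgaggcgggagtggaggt
JUND promoter (chr19:18281573-18281872, minus strand): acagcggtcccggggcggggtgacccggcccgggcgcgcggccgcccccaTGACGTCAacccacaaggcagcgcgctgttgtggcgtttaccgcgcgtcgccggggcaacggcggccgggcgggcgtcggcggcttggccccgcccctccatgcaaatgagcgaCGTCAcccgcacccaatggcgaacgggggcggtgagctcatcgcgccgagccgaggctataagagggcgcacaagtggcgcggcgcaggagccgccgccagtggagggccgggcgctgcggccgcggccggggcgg
ATF3 promoter (chr1:212565157-212565456, plus strand): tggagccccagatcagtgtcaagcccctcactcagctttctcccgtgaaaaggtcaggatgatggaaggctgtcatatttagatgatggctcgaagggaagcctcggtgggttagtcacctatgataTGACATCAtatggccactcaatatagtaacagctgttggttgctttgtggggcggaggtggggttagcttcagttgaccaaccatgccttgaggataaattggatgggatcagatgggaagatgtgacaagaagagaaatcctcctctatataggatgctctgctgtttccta

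RefSeq promoters were matched for 7 members, with 2 annotated starts for ATF3, of which the upstream start is shown. The CRE core TGACG was found in 6 of these 7 members and in 24.6% of all 35116 promoters of the same length. Counted per gene, as the members are, it was found for 41.0% of the 8970 other genes compared that had a promoter, and the full CRE for 3.97%. In FOS it lay at positions -64 to -60, in FOSB at -60 to -56 and in FOSL2 at -66 to -62, counted from the start site with no position 0. JUN held it at -123 to -119 and JUNB at -137 to -133. JUND held the full CRE, TGACGTCA, at -200 to -193, a sequence present in 1.85% of all promoters, and another copy of the core at -86 to -82. The TGACG core is contained in the full CRE, so these matches overlap. TGACATCA was found in JUN at -67 to -60 and in ATF3 at -123 to -116, against 2.61% of promoters. The AP-1 site TGAGTCA was present in FOSL2 only among the 7, just after the start, and in 4.95% of promoters. TATAAA was found in 4 of the 7, against 11.5% of promoters. It lay at -33 to -28 in FOS, -30 to -25 in FOSB and -31 to -26 in JUNB. For ATF3 it lay only at the downstream start that is not shown, at -230 to -225. A CArG box, the site of serum response factor, was found in none of these windows (1.29% of promoters). Sites more than 250 bases before the start were not searched, so this absence does not speak for the regions further upstream. Counted per gene among the same 8970 other genes, the shares were 2.05% for TGACATCA, 4.78% for TGAGTCA, 7.58% for TATAAA and 1.47% for a CArG box. A match is a description of letters, and which start sites HCT116 cells used was not examined. For ATF3, whether either window lies at the start of its main mRNA was not examined. Its lack of TGACG and its TATAAA match hold for these windows only.

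Some members also carry the AU-rich nonamer TTATTTATT, a signal for rapid mRNA decay, in the 3′ untranslated region. In the GENCODE release 29 coding transcripts it was found once in FOS and once in FOSL2, and in 8.2% of the coding transcripts of genes compared. The sites are shown in DNA letters with the nonamer in capitals.
FOS 3′ UTR site: gtttttaatTTATTTATTaagatggat
FOSL2 3′ UTR site: tttattttaTTATTTATTttaaatgtt

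The shorter element ATTTA was present in the 3′ untranslated region of all 9 members, from 1 copy in FOSL1, JUND and BATF3 to 5 in FOS and 9 in FOSL2. The share of all genes with this short element is not given here, so it cannot be called a trait of the members. JUN, JUNB and JUND are single-exon genes, whereas FOS, FOSB, FOSL1, FOSL2 and ATF3 have 4 exons and BATF3 has 3.

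The libraries held 18020870 to 20313597 reads, and 20012 to 21218 entries had at least 1 read. The siRNA target, CDK4, had 2689, 1059 and 1426 reads in the untreated, siRNA and palbociclib libraries, so the siRNA library stood at 0.42 of the untreated level (0.391 to 0.451). Of 8 epithelial markers, 6 or 7 reached 1 CPM (reads scaled to the library total) in each library, and KRT20 and VIL1, markers of differentiated colon cells, had at most 22 and 5 reads. Blood cell markers summed to 0.0476 CPM in untreated cells and 0.254 with siRNA, and to 3.2 with palbociclib, where all 52 reads were of CD14 and PTPRC, which marks white blood cells, was at 0. Fibroblast markers summed to 8.99 to 22.3 CPM, nearly all from COL1A1, with COL1A2 at 0. Endothelial markers, 3 of 4 of them measured, summed to 0.429 to 0.801 CPM, with CDH5 at 0. RNA composition differed: mitochondrially encoded RNAs took 6.53% of the palbociclib reads against 4.02% untreated and 3.85% with siRNA. MALAT1 had 13502 reads against 1355 and 2211, and 28S ribosomal RNA 7759 against 2085 and 2549. With library totals that left out mitochondrial and ribosomal RNA, MALAT1 and the most abundant genes, FOS and JUN had log2 ratios of 4.31 and 4.15 for palbociclib against untreated, 7 members stayed called as higher, and FOSL2, at 0.93, did not.

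Per length, JUND was the most abundant member in each library and FOSL1 the next. Levels between genes were compared in deposited FPKM (reads scaled by gene length and library total). In untreated cells JUND stood at 220 FPKM (215 to 224), FOSL1 at 103 (100 to 107) and JUNB at 48.2 (46 to 50.5). FOSL2 at 13.9, JUN at 12.3, ATF3 at 9.72 and FOS at 4.52 followed. FOSB at 1.86 (1.57 to 2.2) and BATF3 at 1.75 (1.4 to 2.17) had overlapping intervals and could not be ordered. The FPKM of BATF3 rests on a length of 2357 bases, whereas its GENCODE coding transcript has 980. Its place beside FOSB, without treatment or with siRNA, therefore depends on the length used. JUND was thus 238th of 20012 listed entries by FPKM, while FOS was 7985th and FOSB 10185th. The siRNA library gave the same order except that JUN at 12.4 and FOSL2 at 12.3, and BATF3 and FOSB at 1.94 and 1.93, had overlapping intervals. In the palbociclib library the order was JUND at 1152 FPKM, FOSL1 at 326, JUN at 202, ATF3 at 155, JUNB at 105, FOS at 83.8, FOSL2 at 24.5, FOSB at 19.2 and BATF3 at 0.683, with no overlap between neighbours. JUN and ATF3 thereby stood above JUNB, and FOS above FOSL2, which they did not in the other libraries.

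**Figure D1:**
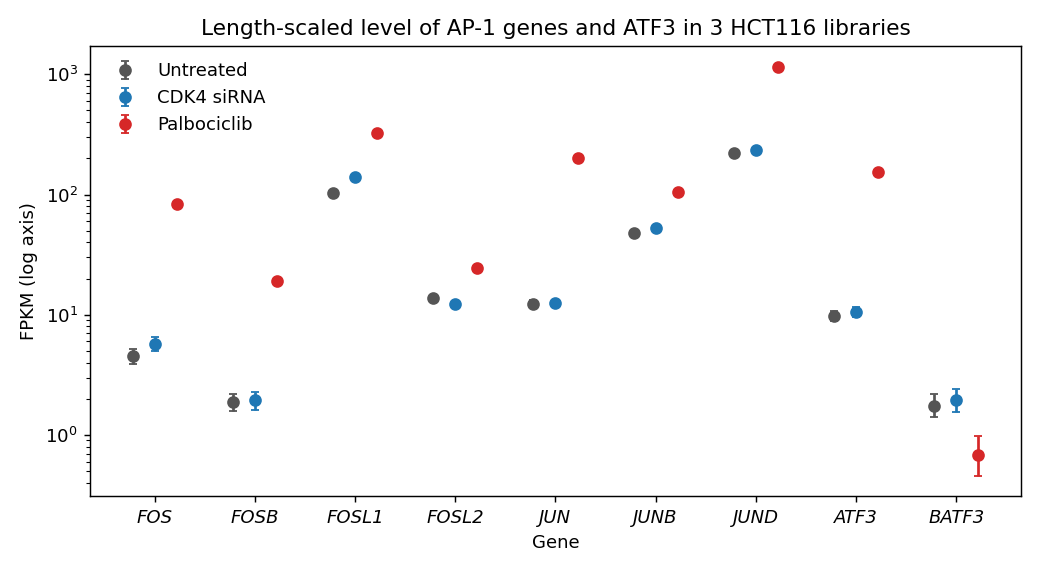
Deposited FPKM (log axis) of each member in the untreated (grey), CDK4 siRNA (blue) and palbociclib (red) libraries, 1 point per library with its 95% counting interval. The palbociclib points lie above the other points for every gene but BATF3, where the palbociclib point, 0.683, is the lowest.

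Between libraries, the members were compared in CPM on library totals scaled by TMM, a method that sets the typical gene to an equal level. A gene was called higher or lower when its log2 ratio, after a prior count of 2, was at least 1 in size and its counting interval excluded 1. All 9 members passed the mean of 1 CPM required for comparison. By this rule 8 members were higher and 1, BATF3, was lower in the palbociclib library than in the untreated one. Over all 12694 genes compared, 10.0% were higher and 13.6% lower, 23.6% in either direction. The median log2 ratio was 2.59 over the members and -0.07 over all genes. In the siRNA library none of the 9 members was called, beside 1.10% of all genes higher and 0.118% lower, 1.22% together, and the median was 0.07 against -0.02. These comparisons share the untreated library. In bulk RNA, fewer cells of a type and less RNA per cell cannot be told apart, nor can a difference in every cell from one in some of them.

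**Figure D2:**
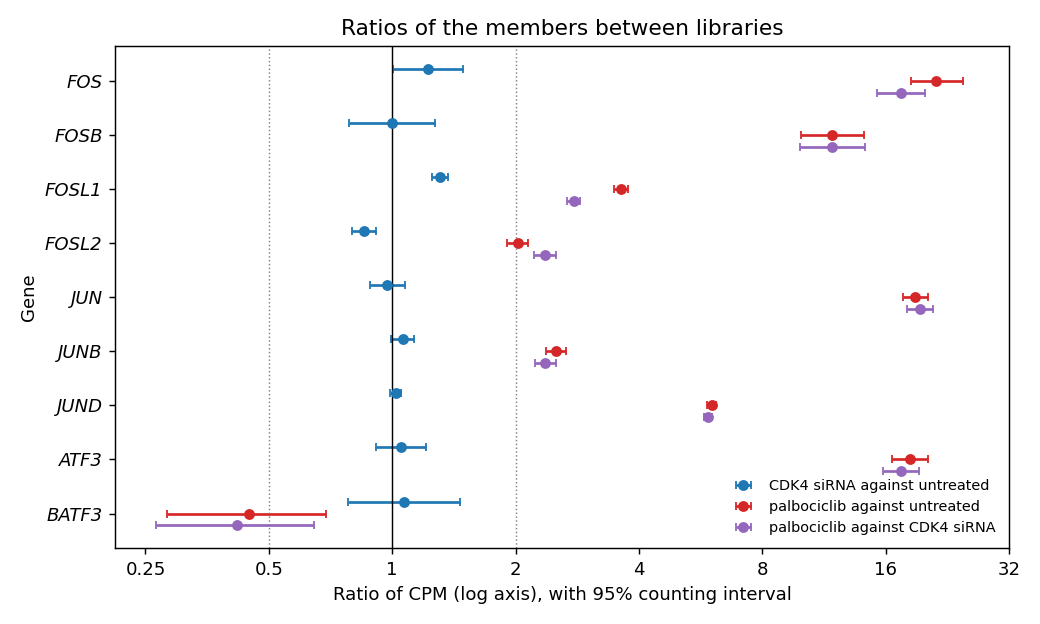
Ratio of CPM (log axis) of each member for the 3 comparisons, each point with its 95% counting interval; the solid line marks 1 and the dotted lines the 2-fold rule. The siRNA points lie between 0.856 and 1.31, and the palbociclib points of 8 members lie above 2.

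FOS, the prototype FOS protein and a potent activator with JUN, had 198 reads without treatment, 227 with siRNA and 3258 with palbociclib. These counts are levels of 9.43 CPM (8.16 to 10.8), 11.5 (10.1 to 13.1) and 201 (194 to 208). The palbociclib library alone was high, and the intervals of the other libraries overlapped. With palbociclib the ratio to untreated was 21.3 (18.4 to 24.7), and the log2 ratio of FOS was the 20th highest of 12694 genes. With siRNA the ratio was 1.22 (1.006 to 1.49), above 1 but well short of the 2-fold rule.

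FOSB, which acts like FOS and also has a short form without the activation domain, had 143, 134 and 1306 reads in the same order, or 6.81, 6.8 and 80.4 CPM. Its ratio to untreated was 1.0 (0.783 to 1.27) with siRNA and 11.8 (9.93 to 14.1) with palbociclib. FOSB thus stood high in the palbociclib library alone, as FOS did.

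FOSL1 encodes FRA1, a FOS protein that lacks the activation domain of FOS and is abundant in many carcinoma lines. It had 3504, 4291 and 9818 reads, or 167 CPM (161 to 172), 218 (211 to 224) and 605 (593 to 617). No intervals overlapped, with untreated lowest, siRNA between and palbociclib highest. The ratio with siRNA, 1.31 (1.25 to 1.37), was the furthest above 1 of any member in that comparison. The log2 ratio of FOSL1 there was the 1148th highest of all genes. With palbociclib the ratio was 3.62 (3.49 to 3.77).

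FOSL2, the gene of the related protein FRA2, had 1894, 1520 and 2963 reads, or 90.2, 77.2 and 183 CPM. It was the only member with an interval below 1 in the siRNA library, at 0.856 (0.799 to 0.916), as were 23.7% of all genes. Members with an interval above 1 there were FOS and FOSL1, beside 17.7% of all genes. With palbociclib FOSL2 reached 2.02 (1.91 to 2.15), so it only just passed the rule, and with library totals in place of TMM it did not, at a log2 ratio of 0.82.

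JUN, the prototype JUN protein and main target of the JUN N-terminal kinases, had 828 reads without treatment, 756 with siRNA and 12105 with palbociclib. Its levels were 39.4 CPM (36.8 to 42.2), 38.4 (35.7 to 41.2) and 746 (732 to 759). The untreated and siRNA libraries overlapped, with a ratio of 0.973 (0.881 to 1.08). The palbociclib library stood at 18.9 times the untreated level (17.6 to 20.3), and the log2 ratio of JUN was the 25th highest.

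JUNB, a weaker activator that can oppose JUN, had 1778, 1768 and 3448 reads, or 84.7, 89.7 and 212 CPM. The ratio to untreated was 1.06 (0.992 to 1.13) with siRNA and 2.51 (2.37 to 2.66) with palbociclib. JUNB was therefore high with palbociclib too, but by far less than JUN.

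JUND, the member expressed steadily in many resting cells, had 8341, 7981 and 38815 reads, or 397 CPM (389 to 406), 405 (396 to 414) and 2391 (2367 to 2415). The siRNA ratio was 1.02 (0.989 to 1.05) and the palbociclib ratio 6.02 (5.88 to 6.16). In FPKM JUND moved from 238th to 41st place among the entries of its library. It also had the narrowest intervals, as the member with the most reads.

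The JUN subfamily has no introns, so reads from unspliced RNA or DNA cannot be told apart from mRNA reads. Among 198 other single-exon coding genes, histones left out, 34 were higher with palbociclib (17.2%) and 22 lower (11.1%), with a median log2 ratio of 0.09. Of 10843 coding genes with introns 8.88% were higher and 13.5% lower, with a median of -0.09. The part of this in the JUN, JUNB and JUND values was not tested.

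ATF3 had 418 reads without treatment, 412 with siRNA and 5915 with palbociclib. These are 19.9 CPM (18 to 21.9), 20.9 (18.9 to 23) and 364 (355 to 374). Only the palbociclib library was high, with a ratio of 18.3 (16.6 to 20.3) to untreated, whereas the siRNA ratio was 1.05 (0.915 to 1.21).

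BATF3 was the member with the fewest reads, 84 without treatment, 84 with siRNA and 29 with palbociclib, or 4.0 (3.19 to 4.95), 4.26 (3.4 to 5.28) and 1.79 CPM (1.2 to 2.57). It was low with palbociclib, at 0.447 (0.282 to 0.689), while its siRNA interval included 1, at 1.07 (0.778 to 1.46). Its log2 ratio of -1.12 was the 1409th lowest of 12694. Once trends with GC content and transcript length were subtracted it was -0.99, below the rule in size.

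**Figure D3:**
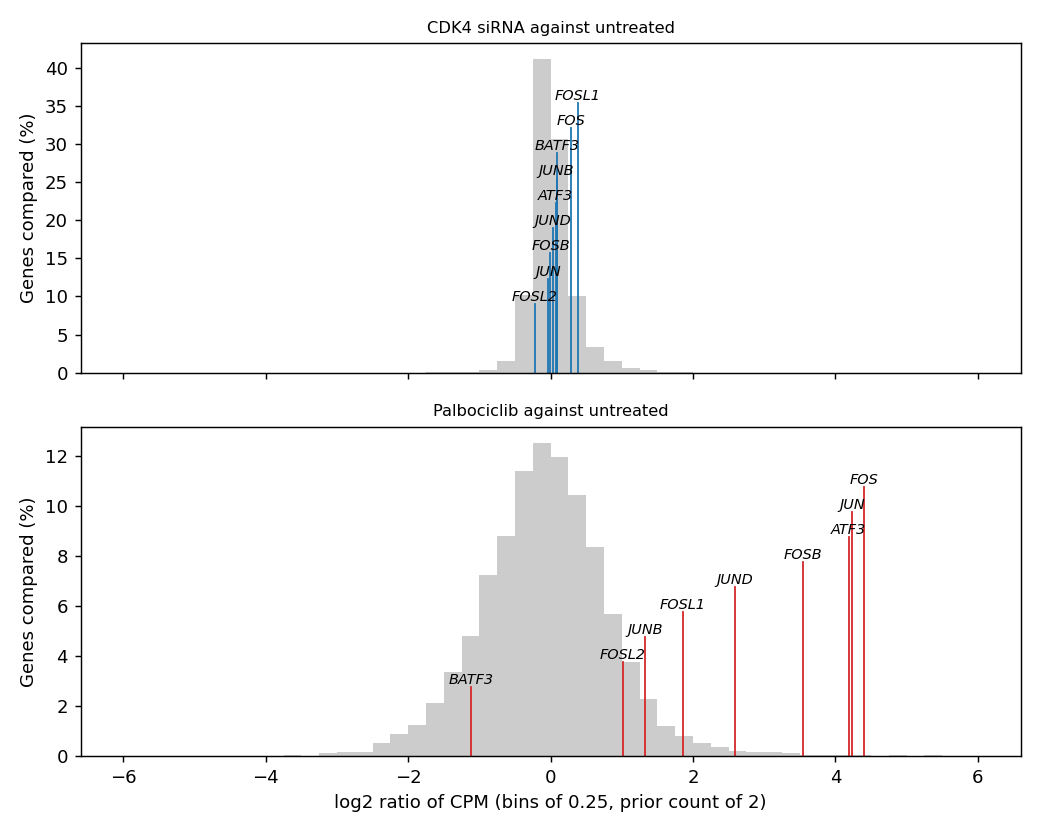
Distribution of log2 ratios over the 12694 genes compared (grey bars, percent of genes per bin of 0.25) with each member marked by a line whose height has no meaning. In the upper panel, siRNA against untreated, the members lie inside the bulk of genes; in the lower panel, palbociclib against untreated, FOS, JUN, ATF3 and FOSB lie above 3.5.

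The direct comparison of palbociclib with siRNA gave the same split, with 8 members higher and BATF3 lower, where 8.75% of all genes were higher and 13.8% lower. JUN was furthest apart, at 19.4 (18.1 to 20.9), followed by ATF3 at 17.4 (15.8 to 19.3) and FOS at 17.4 (15.2 to 20.0). FOSB stood at 11.8 (9.89 to 14.2), JUND at 5.9 (5.76 to 6.05) and FOSL1 at 2.78 (2.68 to 2.88). FOSL2 and JUNB had nearly equal ratios here, at 2.37 (2.22 to 2.52) and 2.37 (2.23 to 2.51), and with library totals in place of TMM both fell below the rule, at log2 ratios of 0.988 and 0.989. BATF3 was at 0.419 (0.265 to 0.646). The member that differed most from its palbociclib ratio to untreated was FOSL1, for which the siRNA library was the higher control.

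The make-up of the family within a library does not depend on the scaling between libraries. The 9 members had 17188 reads without treatment, 17173 with siRNA and 77657 with palbociclib, and their FPKM summed to 415, 471 and 2069. JUND made up 52.9% of the summed FPKM in untreated, 49.4% in siRNA and 55.7% in palbociclib cells. FOSL1 made up 24.9%, 29.8% and 15.8%, and JUNB 11.6%, 11.3% and 5.09%. Thus FOSL1 and JUNB held smaller shares with palbociclib although their own levels were higher. JUN went from 2.96% and 2.64% to 9.78%, ATF3 from 2.34% and 2.25% to 7.49%, and FOS from 1.09% and 1.22% to 4.05%. The FPKM of the 4 FOS genes, divided by that of the 3 JUN genes, was 0.441 in untreated cells, 0.537 with siRNA and 0.311 with palbociclib. FOSL1 carried most of that sum, and without it the same ratio was 0.0724, 0.0671 and 0.0873. From read counts, in which long FOSL2 weighs more, the ratio without FOSL1 was 0.204, 0.179 and 0.138, so its direction with palbociclib turned with the unit. These are mRNA shares and say nothing of the proteins or their pairs.

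**Figure D4:**
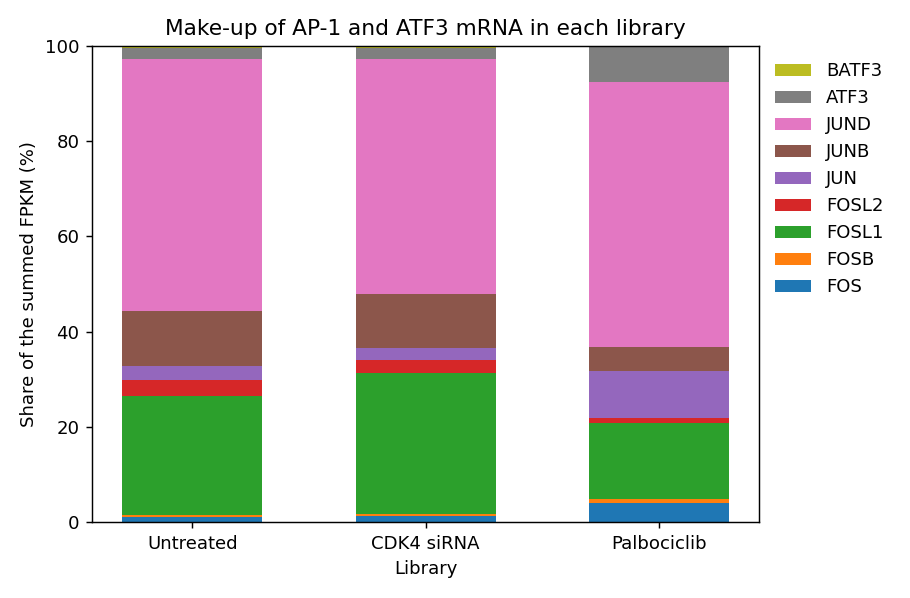
Share of each member in the summed FPKM of the 9 genes (percent), 1 bar per library. In the palbociclib bar JUN, ATF3 and FOS take 9.78%, 7.49% and 4.05%, and FOSL1 and JUNB take less than in the other bars.

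Members differed in how alike their profiles over the 3 libraries were. Likeness was measured as the Euclidean distance between log2 CPM values, each gene centred on its own mean, and candidates were the 10334 genes at a mean of at least 5 CPM, the member itself left out. JUN and ATF3 were the closest members at 0.12, FOS and ATF3 lay at 0.17, FOSL2 and JUNB at 0.25, and JUN and BATF3 the furthest apart at 4.43. Over all genes, IRS2, an adaptor of the insulin receptor, was nearest to ATF3 (0.014) and to FOS (0.16), with 1144, 1141 and 16328 reads. MAFF, a small bZIP protein, was second for FOS, with 264, 319 and 3894 reads. The nearest genes of FOSB included OSGIN1 and the growth factor inducible gene CYR61. The phosphatase gene DUSP1, with 275, 264 and 1254 reads, was nearest to JUND, at 0.033. FOSL1 had CRIPAK, ZNF160 and RHBDF2, FOSL2 had SDE2, ZNF394 and USP16, and JUNB had KIAA2026, PHLDA2 and DNAJB6 as nearest genes, while B3GNT1, FBXO5 and MSI2 were nearest to BATF3. The third genes were PMEPA1 for JUN, with 18, 17 and 329 reads, and CYP4F11 and STC2 followed DUSP1 for JUND. With 3 libraries such profiles are coarse, and many genes lie close to the members of small ratio.

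Other bZIP genes, potential partners or rivals of AP-1, numbered 36 compared of 42 listed. Of these, 12 were higher and 2 lower with palbociclib, beside 10.0% and 13.6% of all genes compared. The list's median log2 ratio was 0.76. MAFF led at 19.1 times the untreated level (16.8 to 21.7). It was followed by CREB5 at 9.49 (4.71 to 21.7) from 9 against 66 reads, BACH2 at 6.57 (4.25 to 10.5) and DDIT3, which encodes the stress factor CHOP, at 4.72 (3.35 to 6.78). CREB5, at 0.429 CPM untreated, 0.254 with siRNA and 4.07 with palbociclib, passed the mean of 1 CPM only through the palbociclib library. The filter thus favoured a higher call for CREB5. ATF5, a factor of the amino acid stress response, went the other way at 0.318 (0.263 to 0.382). With siRNA 1 gene was higher and 1 lower, beside 1.10% and 0.118% of all genes, with a median of -0.02 over the list. The higher one was DDIT3, at 2.28 (1.57 to 3.36) from 43 against 92 reads.

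The kinases and transcription factors that act on the AP-1 genes lay near the untreated level as a list. Of 27 compared of 28, 2 were higher and 3 lower with palbociclib, beside 10.0% and 13.6% of all genes compared. These counts were near the shares over all genes. The list's median log2 ratio was 0.04 with palbociclib. With siRNA none was called, beside 1.22% of all genes. MEF2D, a factor known to act on the JUN promoter, was higher at 4.03 (3.74 to 4.33), and SRF, which drives FOS from its serum response element, at 2.15 (2.05 to 2.26). The lower genes were MAP3K5, whose product ASK1 activates the stress kinases, at 0.275 (0.218 to 0.343), MAPK9, the gene of JNK2, at 0.392 (0.34 to 0.451), and MAPK12, a p38 kinase gene named after its values were seen, at 0.478 (0.425 to 0.536). Kinase activity was not measured.

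Among 14 regulators of AP-1 mRNA decay, protein turnover and dephosphorylation, 2 were higher and 1 lower with palbociclib. Over all genes compared 10.0% were higher and 13.6% lower, and so few genes cannot be set apart from these shares. With siRNA none was called, beside 1.22% of all genes. The list's median log2 ratio was -0.10 with palbociclib. ZFP36, whose product tristetraprolin binds AU-rich elements and speeds decay, had 632, 750 and 1657 reads and a palbociclib ratio of 3.39 (3.09 to 3.72). HNRNPD, the gene of the AU-rich element binding protein AUF1, had 12869, 11310 and 1878 reads and stood at 0.189 (0.18 to 0.198). DUSP1, which removes phosphate from stress kinases and is itself an immediate early gene, was at 5.9 (5.17 to 6.75).

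Of 41 genes known as AP-1 targets 26 were compared. With palbociclib 13 were higher and 2 lower, beside 10.0% and 13.6% of all genes compared. The list's median log2 ratio was 1.03. IL8, which encodes a neutrophil chemokine, was highest at 31.7 (24.1 to 42.5), from 53, 70 and 1297 reads. HMOX1, which encodes heme oxygenase and is also a target of NRF2, stood at 12.1 (11.4 to 12.8). GCLC, a glutathione synthesis gene, was at 4.91 (4.64 to 5.2). The metallothionein gene MT2A was lower at 0.308 (0.29 to 0.327), as was SPP1, named after its values were seen, at 0.431 (0.218 to 0.805). With siRNA none of the 26 was called, beside 1.22% of all genes, and the list's median was 0.07. Target lists of transcription factors overlap, so a target's level does not show which factor acted on it.

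**Figure D5:**
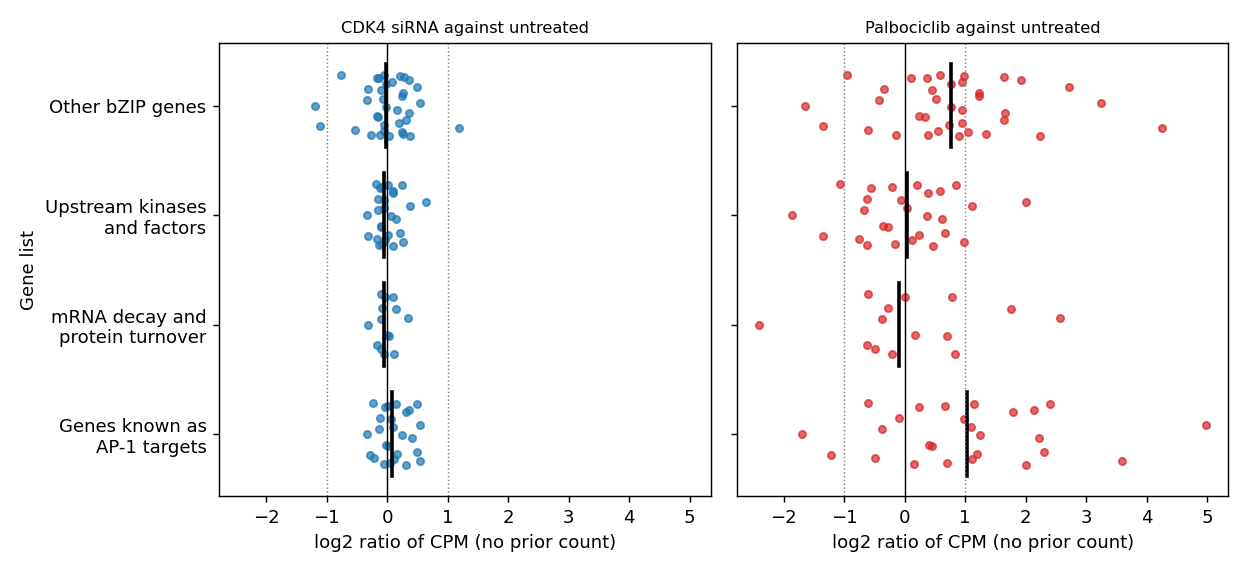
Log2 ratios of CPM without a prior count for the compared genes of 4 lists, 1 point per gene, spread vertically for legibility, with the list median as a black bar and the 2-fold rule dotted. Palbociclib ratios (right) spread from about the level of HNRNPD to that of IL8, whereas siRNA ratios (left) past the rule are those of a few bZIP genes with few reads.

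Neighbouring genes on the opposite strand could add reads to a member, or cost it reads, if counting ignored strand. The strand setting is not given in the sources used here. The overlaps named are of whole genes, and exons were not compared. In the GENCODE annotation FOSB overlaps ERCC1, JUNB overlaps HOOK2 and FOSL2 overlaps the antisense gene FLJ31356 on opposite strands. FLJ31356 was not analysed here, and AC104695.3, on the same strand within FOSL2, had 1, 0 and 2 reads. ERCC1 had 1185, 1015 and 537 reads and a palbociclib ratio of 0.586 (0.528 to 0.65), opposite in direction to FOSB. HOOK2 had 642, 816 and 959 reads and a palbociclib ratio of 1.93 (1.75 to 2.14), in the same direction as JUNB at 2.51, and its part in the JUNB value was not tested.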

How the data were processed

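RNA was sequenced from 3 HCT116 cultures, 1 library per group, and table columns were matched to libraries by title. The authors deposited whole-number read counts per gene and FPKM values per gene. HTSeq 0.6.1, DESeq and build hg19 are named, per the submitters' processing notes. The aligner, annotation and strand setting were not given in the sources used here. The deposited FPKM are those counts divided by gene length and library total, with a largest relative deviation of 9e-12 over 16938 genes, so they add no independent measurement. A further 29 entries carry dates in place of symbols and stayed in the totals.

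Counts were scaled with TMM factors (1.03 untreated, 1.07 siRNA, 0.901 palbociclib) from edgeR 4.0.16 in R 4.3.3. Ratios are of CPM without a prior count, log2 ratios use a prior count of 2, and genes needed a mean of 1 CPM. Intervals are exact at 95% (Clopper-Pearson for ratios, Poisson for levels). They cover counting error only, since each group is 1 library. No allowance was made for PCR copies, which could make the intervals too narrow. With 1 library per group no p-value was computed. The size rule was tested on simulated data that held counting error only, so that test does not cover differences between cultures. Alternatives were DESeq2 1.42.0 size factors, library totals, FPKM, other filters, prior counts and folds and, added after seeing the data, subtracted GC and length trends. The members, lists and named genes (4 leading called genes per list and 1 contrary one, 3 nearest profiles per member) were chosen with earlier results of these data known. RefSeq and GENCODE use GRCh38, so no coordinates were joined to the counts. Some genes that the naming rule picked are not reported here. GENCODE coding models matched 87.2% of the genes compared.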

Additional observations from a re-analysis of the deposited data

How the results depend on the processing

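No paired analysis was possible because each group has 1 library, and for the same reason no replicate could be left out. Each of the 9 members kept its direction against untreated and against siRNA for palbociclib under every scaling, unit, prior count and trend correction run. Log2 ratios to untreated ranged over these settings from 4.18 to 4.43 for FOS, 4.03 to 4.26 for JUN, 3.98 to 4.23 for ATF3, 3.3 to 3.57 for FOSB, 2.36 to 2.61 for JUND, 1.66 to 1.96 for FOSL1, 1.13 to 1.35 for JUNB and 0.814 to 1.04 for FOSL2. BATF3 ranged from -1.31 to -0.985. FOSL2 missed the 2-fold rule with library totals (0.818), totals without the most abundant RNAs (0.928), FPKM (0.814) and GC and length trends subtracted (0.961), where BATF3 missed it too (-0.985). Against siRNA, FOSL2 and JUNB missed it with library totals (0.988, 0.989) and FPKM (0.983, 0.988). For siRNA no member was called under any setting, including a 1.5-fold rule, and JUN, FOSB, JUNB and JUND changed sign between settings. Entries with the same symbol made no difference, since each member has 1.

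A 4-fold rule left 5 members higher with palbociclib, against untreated and against siRNA alike. Over all genes, the 155 siRNA calls became 87 with FPKM, 539 without a low-count filter, 34 at a mean of 5 CPM, 596 with a 1.5-fold rule, 1 with a 4-fold rule and 94 with trends subtracted. The 1.5-fold and 4-fold rules called 5794 and 493 genes for palbociclib against untreated and 5740 and 450 against siRNA. Library totals moved the median of all genes for palbociclib from -0.07 to -0.27 and the share of higher calls from 42.4% to 25.7%, and against siRNA from 38.8% to 19.8%. FPKM gave 25.6% and 20.9% and totals without the most abundant RNAs 34.1% and 28.98%. Under these 3 scalings the members' split moved by at most 2 genes.

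From read counts in place of FPKM, JUND made up 48.5%, 46.5% and 49.98% of the members in the untreated, siRNA and palbociclib libraries. In FPKM, without ATF3 and BATF3, its share was 54.4%, 50.8% and 60.2%. The ratio of FOS genes to JUN genes from read counts was 0.524, 0.588 and 0.319. In FPKM without FOSL1 it was 0.0724, 0.0671 and 0.0873, while from read counts without FOSL1 it was 0.204, 0.179 and 0.138, so its direction with palbociclib turned with the unit. Depth limits BATF3 most, with 29 reads in the palbociclib library.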

Other observations

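Genes other than the members that share their promoter or mRNA elements were counted as a description, with no test. Of 429 such genes with the AP-1 site TGAGTCA in a RefSeq promoter, 66 were higher (15.4%) and 34 lower (7.93%) with palbociclib, with a median log2 ratio of 0.17. Of 8541 genes with a promoter but no such site, 8.57% were higher and 13.7% lower, with a median of -0.09. For the full CRE, TGACGTCA, 49 of 356 genes were higher (13.8%) and 20 lower (5.62%), against 8.7% and 13.7% of 8614 genes without it. The variant TGACATCA gave 14.1% higher and 13.0% lower among 184 genes, against 8.79% and 13.4% of 8786 genes without it. A CArG box gave 15 higher (11.4%) and 23 lower (17.4%) among 132 genes. Without it the shares were 8.86% and 13.3% of 8838 genes. In the siRNA library the median log2 ratio was 0.02 for genes with TGAGTCA and -0.02 for genes with the full CRE.

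Of 906 other genes with the AU-rich nonamer TTATTTATT in the 3′ untranslated region, 15.0% were higher and 9.82% lower with palbociclib, against 8.47% and 13.8% of 10101 genes with such a region but no nonamer. Among genes whose region measured from 500 to under 2000 bases, 17.2% of 279 with the nonamer and 9.14% of 4104 without it were higher. GC content and levels were not compared between such groups.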
